A study of Mus musculus with 16 samples.

Results

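Cytosolic ribosomal protein genes were taken from the deposited gene table as the protein-coding rows whose symbol starts with Rpl or Rps and a digit, together with Rplp0, Rplp1, Rplp2 and Rpsa. Rows for the ribosomal S6 kinases (Rps6k) and rows with a pseudogene suffix were left out. The rule gave 89 genes of the 24371 in the table, of which 17627 were protein coding. By known role, 46 encode large-subunit proteins, 31 small-subunit proteins and 6 paralogs (Rpl3l, Rpl22l1, Rpl7l1, Rpl36al, Rpl39l and Rps27l). The symbol rule also took in 4 retrocopy or like-rows (Rpl37rt, Rpl32l, Rpl6l and Rps27rt), the retrogene Rps23rg1, and Rps19bp1, which encodes a binding partner of a ribosomal protein and not a ribosomal protein.

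RNA was sequenced from 16 mouse hearts, 4 in each of 4 groups. Every mouse carried the floxed alleles of Gpr91, the succinate receptor (Gpr91fl/fl), and every mouse had the 2-hit model of HFpEF (heart failure in which the ejection fraction is preserved), in which the nitric oxide synthase inhibitor L-NAME and a high-fat diet were given for 12 weeks. The groups were mice that also carried Myh6Cre with succinate, Myh6Cre mice without succinate, floxed mice with succinate, and floxed mice without succinate. The study asked what succinate does to the heart in this model and whether that depends on the receptor in cardiomyocytes, the cells in which the Myh6 promoter drives Cre. No group lacked the model or the floxed alleles, so all differences were between diseased hearts. Age, sex, and whether the 4 hearts of a group came from separate animals are not given in the labels used here, and p-values therefore cover only the spread between the libraries.

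Ribosomal proteins coat and help to fold the ribosomal RNAs of both ribosomal subunits, and most of them are needed in close to equal numbers. Their mRNAs start with a C and a run of pyrimidines, the terminal oligopyrimidine (TOP) motif, through which mTORC1 and Larp1 control their translation and stability together. The heart and skeletal muscle are known for Rpl3l, a paralog of Rpl3 that takes the place of Rpl3 in the large subunit, and mice without Rpl3l are known to make more Rpl3.

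Libraries held 27835235 to 34700996 counts, and mitochondrially encoded genes took 23.5% to 27.7% of them. Sucnr1, the gene of the succinate receptor, had 13, 3, 13 and 2 counts in the Cre hearts with succinate and 2, 6, 21 and 3 in the Cre hearts without, against 5, 2, 7 and 0 in the floxed hearts with succinate and 0, 4, 1 and 1 in the floxed hearts without. These counts were not lower in Cre hearts and were too few to test, and whole hearts hold other cells than cardiomyocytes, so the deletion could not be checked and the genotypes are those of the labels. All 8 cardiomyocyte markers were detected and summed to 39574 to 60307 normalised CPM over the 16 hearts (CPM, counts scaled to library size and corrected by the trimmed mean of M-values).

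The 5' ends of the genes show the shared sequence feature and which members lack it. RefSeq promoter windows (build GRCm38.p6) matched 68 of the 89 members. A C followed by at least 5 further C or T letters on the gene's strand, anywhere between 20 bases before and 30 bases after the annotated start, stood in 49 of the 68 (72.06%), against 37.84% of 27025 mouse genes. The letters CGGAAG on either strand, the core bound by ETS factors, stood in the 300 bases of 64.71% of members and 18.78% of genes, and TATAAA between 50 bases before and 10 after the start stood in 2.941% of members and 3.389% of genes. The stretches below run from 20 bases before to 20 bases after the start, with the pyrimidine run in capitals. The first 4 are examples with a run across the start, and the last 4 are members on which the results below turn.
Rpl15, chr14:18270967-18271006, minus strand: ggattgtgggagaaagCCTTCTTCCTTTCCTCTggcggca
Rps10, chr17:27635225-27635264, minus strand: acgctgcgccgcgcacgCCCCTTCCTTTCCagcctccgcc
Rpl7a, chr2:26910787-26910826, plus strand: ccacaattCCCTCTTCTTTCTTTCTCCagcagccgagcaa
Rpl35, chr2:39005112-39005151, minus strand: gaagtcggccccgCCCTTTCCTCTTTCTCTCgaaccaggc
Rpl22l1, chr3:28805488-28805527, plus strand: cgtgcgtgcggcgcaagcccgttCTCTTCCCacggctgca
Rpl10, chrX:74270796-74270835, plus strand: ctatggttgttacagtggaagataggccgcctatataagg
Rpl7l1, chr17:46782637-46782676, minus strand: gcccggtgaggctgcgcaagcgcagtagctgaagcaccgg
Rpl3l, chr17:24727806-24727845, plus strand: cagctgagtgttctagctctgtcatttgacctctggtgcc
Rpl22l1 has its run after the annotated start, and Rpl10, Rpl7l1 and Rpl3l have none in the searched window, nor does the second annotated start of Rpl3l. An annotated start can miss the start used in the heart, so a missing match says only that these letters are not in this window. Rpl3 and Rps27a are named here without a sequence.

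Most members were among the abundant mRNAs of these hearts. On the FPKM scale, which divides by gene length and depth, the small-subunit genes had a median level of 320 FPKM and a range of 36.0 to 925, and the large-subunit genes had a median of 266 FPKM and a range of 42.4 to 900 (means over 16 hearts). The highest were Rps29 at 925 FPKM, Rplp1 of the ribosomal stalk at 900, Rpl41 at 774 and Rps2 at 743. The lowest were Rps27rt at 12.2 FPKM, Rps19bp1 at 7.81, Rpl32l at 0.163, Rpl39l at 0.0735 and Rps23rg1 at 0.0240. The last 3 had at most 8 counts in any heart and were too low to test, which left 86 tested members. Among the paralogs, Rpl3l was highest at 99.96 FPKM, followed by Rpl36al at 97.2 and Rpl22l1 at 59.9, whereas Rpl39l, a paralog known from the mouse testis, was close to absent.

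**Figure D1:**
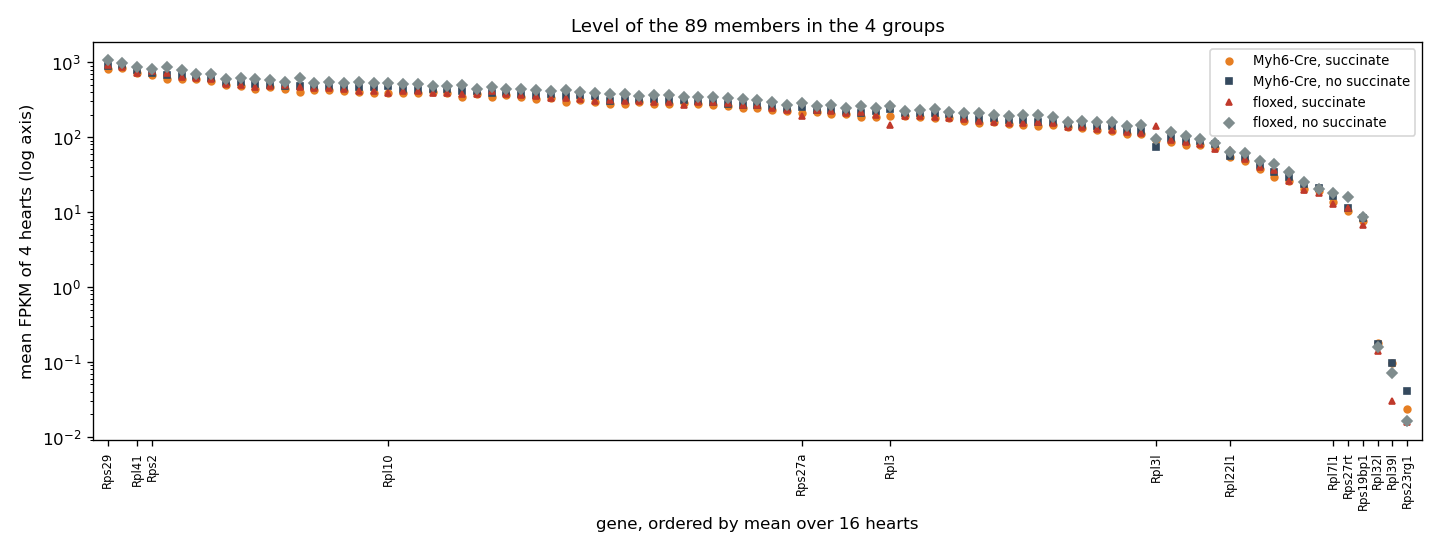
Mean FPKM of 4 hearts (log axis) for each of the 89 genes, ordered by the mean over 16 hearts, with 1 symbol for each group and names for a few genes. The groups nearly coincide for most genes, while Rpl3 and Rpl3l stand apart between groups, and 3 genes lie below 1 FPKM.

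Together the members took a small and variable share of the libraries. The summed share of all counts was 1.58%, 2.05%, 1.69% and 2.90% in the floxed hearts with succinate, against 2.08%, 2.48%, 2.37% and 3.0% in the floxed hearts without. It was 1.73%, 2.32%, 1.90% and 1.85% in the Cre hearts with succinate, against 2.32%, 2.30%, 2.02% and 2.13% in the Cre hearts without. The groups overlapped in both genotypes, and replicate 4 of each floxed group stood highest in its group. The mean was 2.06% ± 0.597 in floxed hearts with succinate and 2.48% ± 0.383 without, and 1.95% ± 0.255 in Cre hearts with succinate and 2.19% ± 0.141 without (SD, n = 4 each).

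**Figure D2:**
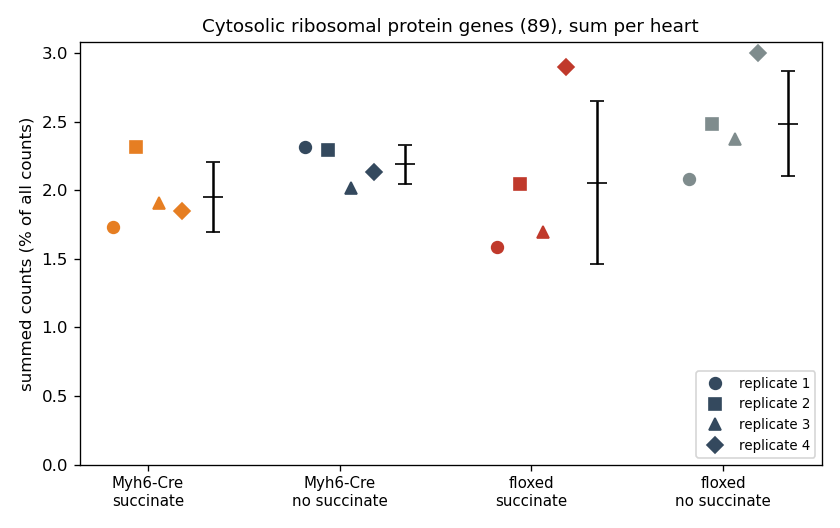
Summed counts of the 89 genes as a percent of all counts in each of 16 hearts, with the mean and SD of each group (n = 4) beside the points and the symbol giving the replicate number. Replicate 4 is the highest heart in both floxed groups, at 2.90% with succinate and 3.0% without.

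The members moved up and down together from heart to heart. The SD over the 16 hearts of a member's log2 level had a median of 0.287, against 0.240 for the other tested genes. Once the median deviation of the members in the same heart was subtracted, the median SD of the members was 0.0684, and it was smaller for 84 of the 86. The largest remaining SDs were 0.519 for Rpl3l, 0.304 for Rpl3, 0.234 for Rpl7l1, 0.226 for Rps27rt, 0.196 for Rps19bp1, 0.190 for Rpl22l1 and 0.173 for Rps27a. These 7 members thus followed the rest least closely. Rps27rt had only 89 to 210 counts per heart and Rps19bp1 155 to 300. The part of low counts in their remaining SDs was not tested.

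The shared movement was uneven across hearts. The median deviation of the 86 members from their means over all hearts (log2) was -0.39, -0.06, -0.35 and 0.54 in the floxed hearts with succinate, against -0.04, 0.16, 0.15 and 0.53 in the floxed hearts without. In the Cre hearts it was -0.31, 0.18, -0.23 and -0.18 with succinate, against -0.01, 0.13, -0.09 and -0.02 without. Large-subunit and small-subunit genes shifted alike, at 0.52 and 0.55 in replicate 4 of the floxed hearts with succinate and -0.39 and -0.40 in replicate 1. Other short genes deviated the same way in several of these hearts: the median deviation of 759 other tested genes of up to 1000 bases was 0.30 in replicate 4 of the floxed hearts with succinate, 0.31 in replicate 4 of the floxed hearts without and -0.19 in replicate 1 of the floxed hearts with succinate. In some other hearts the direction was the same but the sizes were less alike. Replicate 1 of the Cre hearts without succinate had -0.14 for the short genes and -0.01 for the members. Replicate 2 of the Cre hearts with succinate had 0.25 and 0.18, so there too the short genes deviated more. In 2 of the floxed hearts without succinate the members were raised while the short genes hardly deviated. Replicate 2 had -0.0003 for the short genes and 0.16 for the members, and replicate 3 had 0.02 and 0.15. Of the tested members, 55 are in that length class. The part that this movement of short mRNAs has in the results was not tested.

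**Figure D3:**
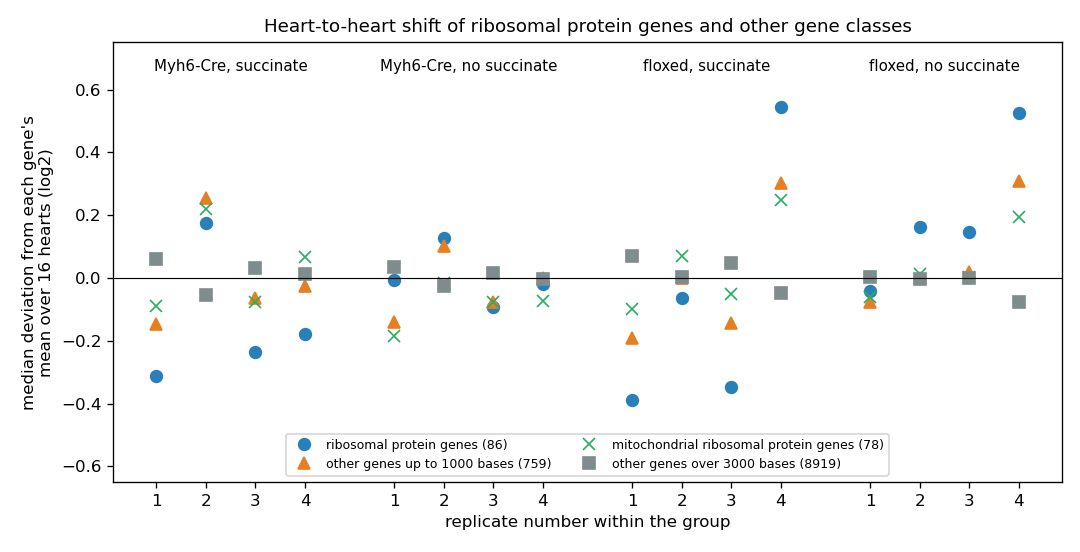
Median log2 deviation from each gene's mean over 16 hearts, for the 86 tested members, for other genes up to 1000 bases, for mitochondrial ribosomal protein genes and for other genes over 3000 bases, in each heart of the 4 groups. The members span -0.39 to 0.54, and the short genes deviate the same way in the hearts where the members are highest and lowest. In replicate 1 of the Cre hearts without succinate the sizes differ, at -0.14 for the short genes and -0.01 for the members.

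With succinate in floxed hearts, most members had slightly lower levels, but few changes passed the test. Of the 86 tested members, 84 had a negative log2 fold change, as did 7261 of all 14607 tested genes. Because the members moved together within a heart, their signs here and below are not independent. Their median deviation per heart averaged -0.06 ± 0.43 with succinate and 0.20 ± 0.24 without (SD, n = 4 each). The median log2 fold change was -0.22 against 0.002 over all tested genes. The median was -0.12 without replicate 1 and -0.14 without replicate 3 of the floxed hearts with succinate, and -0.10 without replicate 4 of the floxed hearts without. Rpl3l rose, Rpl3 and Rpl7l1 fell, and the other 83 did not pass (edgeR quasi-likelihood test, adjusted p under 0.05 over 14607 genes). The test called 13.1% of all genes in this comparison, 7.48% higher and 5.64% lower, so the members' share of calls was below the background. At an unadjusted p under 0.05 there were 11 of the 86 members, against 28.4% of all genes. In these bulk hearts, fewer cells of a type and less RNA per cell cannot be told apart.

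Rpl3, which sits beside the catalytic centre of the large subunit, had 157, 205, 154 and 268 normalised CPM in the floxed hearts with succinate, against 320, 369, 334 and 322 in the floxed hearts without. Every heart with succinate was below every heart without. Rpl3 fell 1.72-fold (log2 fold change -0.78 ± 0.15 SE, edgeR adjusted p = 0.00355). It passed under every one of the 29 alternative settings, with an adjusted p of at most 0.0162.

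Rpl3l, its muscle paralog, had 243, 282, 255 and 275 normalised CPM in the floxed hearts with succinate, against 130, 194, 147 and 216 in the floxed hearts without. The groups did not overlap here either. Rpl3l rose 1.54-fold (log2 fold change 0.62 ± 0.19 SE, edgeR adjusted p = 0.0415). That call is close to the threshold: under 13 of 29 settings it did not pass, with adjusted p up to 0.137 and a log2 fold change of 0.49 to 0.72. Leaving out any of the 4 floxed hearts with succinate, replicate 1 or 3 of the floxed hearts without, replicate 1 or 4 of the Cre hearts with succinate or replicate 4 of the Cre hearts without ended the call.

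The pair can also be read as a balance of both mRNAs. Counted per length, Rpl3 made up 47.7%, 50.8%, 46.0% and 58.1% of the summed FPKM of Rpl3 and Rpl3l in the floxed hearts with succinate, against 77.8%, 72.9%, 76.3% and 67.9% in the floxed hearts without. In the Cre hearts with succinate it made up 65.4%, 64.0%, 72.8% and 67.2%, against 87.3%, 73.0%, 70.1% and 72.6% in the Cre hearts without. The floxed hearts with succinate were thus near equal shares of both mRNAs, and in the other 3 groups Rpl3 was the more abundant in every heart. Between the Cre groups the shares overlapped, and replicate 1 of the Cre hearts without succinate had the highest share of all. Replicate 4 of the floxed hearts with succinate, the heart with high ribosomal protein mRNA, was still below every floxed heart without succinate. The share was chosen after its values were seen and is given without a test.

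**Figure D4:**
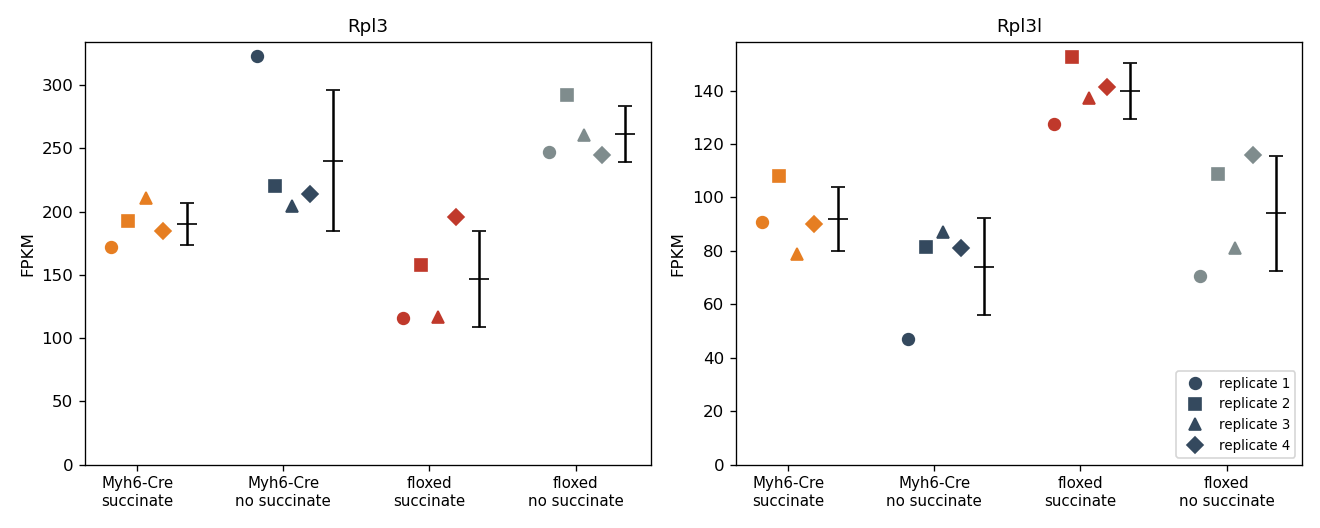
FPKM of Rpl3 (left) and Rpl3l (right) in each of 16 hearts, with the mean and SD of each group (n = 4) beside the points. In floxed hearts with succinate, Rpl3 is below and Rpl3l above every floxed heart without succinate.

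Other cells of the heart are known to express Rpl3 but not Rpl3l, and the markers of some cell types differed too. Of 8 macrophage markers, 6 fell with succinate in floxed hearts, where 5.64% of all genes were called lower and 7.48% higher. The macrophage markers summed to 170 to 292 normalised CPM with succinate against 309 to 461 without. Cardiomyocyte markers summed to 50672 to 60307 normalised CPM with succinate against 40962 to 48607 without, and 2 of 8 rose. Of 7 fibroblast markers none passed, with sums of 898 to 1278 with succinate against 1022 to 1290 without. Of 7 endothelial markers none passed either, with sums of 2014 to 2890 with succinate against 1690 to 2634 without. Atrial markers summed to 65.4 to 94.5 with succinate against 175 to 461 without, with 2 of 5 tested and 1 lower. The part of these cell types in the difference of Rpl3 and Rpl3l was not tested.

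Rpl7l1, a paralog of Rpl7 known to act in ribosome assembly, had 29.0, 37.4, 33.6 and 36.1 normalised CPM in the floxed hearts with succinate, against 47.7, 44.7, 46.7 and 47.7 in the floxed hearts without. Again no heart with succinate reached the level of a heart without. Rpl7l1 fell 1.37-fold (log2 fold change -0.46 ± 0.09 SE, edgeR adjusted p = 0.00428) and passed in every one of the 29 settings. Rpl7 itself did not pass, at -0.22 ± 0.15 (adjusted p = 0.360). Rpl3 and Rpl7l1 were the 2 members of 86 whose groups did not overlap with lower values, against 7.65% of all genes, and Rpl3l was the only member with higher values, against 10.2%.

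Rps27a and Rpl10 came next. Rps27a, made as a fusion with ubiquitin, had 103, 141, 144 and 258 normalised CPM in the floxed hearts with succinate, against 194, 229, 220 and 297 in the floxed hearts without, a log2 fold change of -0.54 ± 0.21 (edgeR adjusted p = 0.0915). Rpl10, an X-linked gene whose protein joins the large subunit late, had 248.6, 299, 247 and 404 with succinate against 342, 394, 389 and 472 without, at -0.41 ± 0.15 (adjusted p = 0.0667). For both genes the groups overlapped only through replicate 4 with succinate.

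Levels were also taken relative to the other members of the same heart. After subtraction of the heart's median deviation, Rps27a was at -0.46, -0.34, -0.03 and -0.08 (log2) with succinate against 0.10, 0.13, 0.09 and 0.14 without. Rpl10 was at -0.02, -0.08, -0.07 and -0.26 with succinate against 0.09, 0.09, 0.09 and -0.01 without. On this scale the groups of neither gene overlapped, by a narrow margin for Rpl10. Rpl3 was at -0.35, -0.29, -0.42 and -0.51 with succinate against 0.33, 0.33, 0.20 and -0.23 without, again without overlap. Rpl3l was at 0.86, 0.74, 0.88 and 0.09 with succinate against -0.40, -0.02, -0.41 and -0.23 without, with replicate 4 the lowest of the hearts with succinate and still above those without. The groups of Rpl7l1 did overlap on this scale, at -0.66 to 0.13 with succinate against -0.24 to 0.33 without. These relative levels are a description, with no test, of members picked for their fold changes in this same comparison. How many of the other members or of all genes have no overlap on this scale is not given here. The gaps therefore cannot be read as particular to these genes.

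The upper end of the list held Rpl22l1 and Rps2. Rpl22l1, the paralog of Rpl22, had 23.9, 29.0, 25.1 and 57.4 normalised CPM in the floxed hearts with succinate, against 27.2, 27.1, 26.96 and 40.9 in the floxed hearts without (log2 fold change 0.15 ± 0.24, adjusted p = 0.735). On this scale its mean was carried by replicate 4 of each group. Relative to the other members of the same heart, Rpl22l1 was at 0.15, 0.10, 0.17 and 0.47 (log2) with succinate. Without succinate it was at -0.01, -0.22, -0.22 and 0.005, below every heart with succinate, again as a description with no test. Rps2 was at -0.02 ± 0.16 (adjusted p = 0.944). Stalk genes Rplp0, Rplp1 and Rplp2, which recruit the elongation factors, were at -0.14, -0.16 and -0.12, and Rpl5 and Rpl11, which with 5S RNA form the particle that restrains Mdm2, were at -0.31 and -0.24. None of these 5 passed, with adjusted p from 0.122 to 0.650.

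Replicate 4 of the floxed hearts with succinate decided how many members were called. Without it, 59 of the 86 members passed and all 59 were lower, against 6.05% of all genes called lower in that fit, and the median was -0.49. Without both floxed hearts numbered 4, an alternative added after seeing the data, 26 passed, all lower, against 4.84% of all genes, and the median was -0.36. In limma with sample weights, which lowers the weight of libraries that stand apart, 13 passed as lower, against 8.89% of all genes, and 1 as higher. Rpl3 and Rpl7l1 passed with and without these hearts.

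With succinate in Cre hearts, no member passed, against 0.917% of all genes called in this comparison. Of the 86, 85 had a negative log2 fold change, as did 7108 of all 14607 tested genes. The median over members was -0.12, against 0.007 over all genes. It was -0.25 without replicate 2 and -0.07 without replicate 1 of the Cre hearts with succinate, and -0.08 without replicate 2 of those without. At an unadjusted p under 0.05 there was 1 member (Rpl7l1), against 14.1% of all genes, and DESeq2 and limma with sample weights also called 0. Rpl3 had 224, 258, 260 and 246 normalised CPM in the Cre hearts with succinate, against 384, 288, 264 and 273 in the Cre hearts without. These groups did not overlap, although 260 and 264 are close and the groups overlapped on the FPKM scale, and Rpl3 was the only member with such a gap downwards, against 3.39% of all genes. Its log2 fold change was -0.29 ± 0.15 (edgeR adjusted p = 0.407). Rpl3l had 167, 205, 138 and 170 with succinate against 79.3, 151, 160 and 147 without, at 0.34 ± 0.19 (adjusted p = 0.447). Rpl7l1 was at -0.22 ± 0.09 (0.291), Rpl10 at -0.25 ± 0.15 (0.456) and Rps27a at -0.23 ± 0.21 (0.666), each with its adjusted p in brackets. Rpl22l1 stood nearest to 0 from below at -0.004 ± 0.24 (0.997), ahead of Rpl36, another large-subunit gene, and Rps2, both at -0.05.

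Whether the succinate difference depends on genotype was tested by the interaction. No member passed, and no gene of the 14607 did (0.0%), with 1 member (Rpl3) at an unadjusted p under 0.05 (4.85% of all genes were) and 0 members called by DESeq2 or limma with sample weights. The median was 0.10 and 82 of 86 were positive, which is to say less negative in Cre hearts. Of all 14607 genes, 7382 were positive. For Rpl3 the difference of differences was 0.49 ± 0.22 with an adjusted p of 0.970 (95% interval 0.03 to 0.94), and for Rpl3l it was -0.28 ± 0.27 (-0.85 to 0.30). For Rpl7l1 it was 0.24 ± 0.13 (-0.03 to 0.51). The median over members was 0.35 without replicate 4 of the floxed hearts with succinate and -0.03 without replicate 4 of the floxed hearts without succinate, so its sign depended on single libraries.

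**Figure D5:**
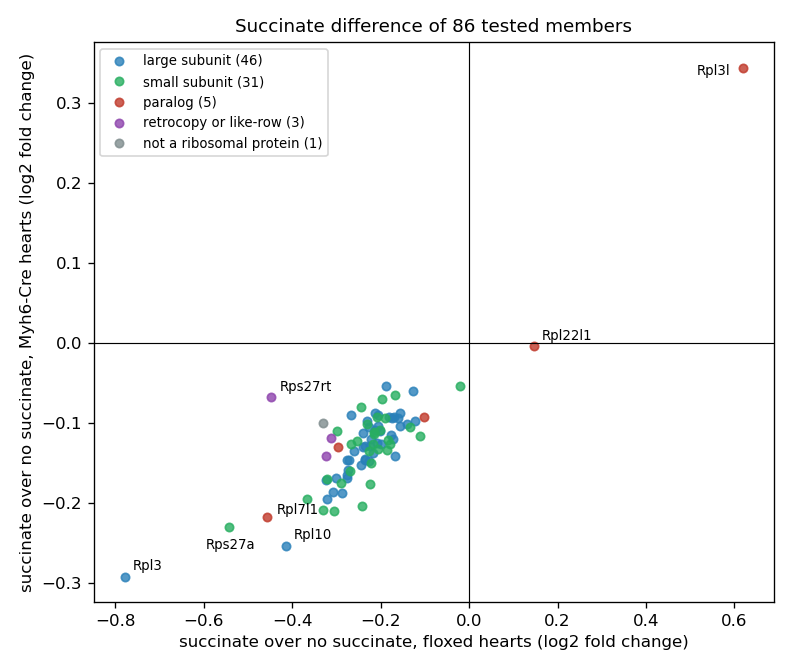
Log2 fold change with succinate in floxed hearts (horizontal) and in Cre hearts (vertical) for the 86 tested members, coloured by class. Most lie in a compact cloud below 0 on both axes, Rpl3 is lowest on both and Rpl3l highest on both.

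Averaged over both genotypes, 4 members passed, against 19.0% of all genes. Rpl3l was higher (10.6% of all genes were) at 0.48 ± 0.14 (edgeR adjusted p = 0.0201), and 3 were lower (8.45% of all genes were). Rpl3 fell by 0.54 ± 0.11 (adjusted p = 0.00247), Rpl7l1 by 0.34 ± 0.07 (0.00184) and Rpl10 by 0.33 ± 0.10 (0.0298), all on the log2 scale. For Rpl10 the call ended without replicate 1 or 3 of the floxed hearts with succinate, replicate 4 of the floxed hearts without, replicate 1 or 4 of the Cre hearts with succinate, or replicate 2 of the Cre hearts without, with adjusted p up to 0.0639. For Rpl3l it ended without replicate 3 of the floxed hearts without succinate (0.0521). The median over members was -0.17, at -0.31 without replicate 4 of the floxed hearts with succinate and -0.11 without replicate 4 of the floxed hearts without. Without replicate 4 of the floxed hearts with succinate, 54 members were lower (9.11% of all genes were) and 1 higher. Without both floxed hearts numbered 4, 42 were lower (8.42% of all genes were) and 1 higher. Without replicate 2 of the Cre hearts with succinate 11 passed, and without replicate 1 of the floxed hearts without succinate 7 passed. The shares of all genes called in these 2 fits are not given here.

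Genotype made little measurable difference to single members. Without succinate, no member passed in Cre against floxed hearts (0.11% of all genes did). Of the members 85 were negative, as were 7230 of all 14607 tested genes, and the median over members was -0.21. At an unadjusted p under 0.05 there were 3 members (Rpl8, Rplp2 and Rps3), against 8.75% of all genes. These comparisons share hearts with the succinate comparisons, and the floxed hearts without succinate include the high replicate 4, without which the median was -0.09. Rpl8, Rplp2, Rps13, Rps27rt and Rps3 were lower in every Cre heart than in every floxed heart, against 2.33% of all genes with such a gap. Rps3, a small-subunit protein at the mRNA entry, had 384, 407, 378 and 376 normalised CPM in the Cre hearts without succinate, against 416, 479, 471 and 568 in the floxed hearts without, at -0.32 ± 0.15 (edgeR adjusted p = 0.553). Rpl3l was at -0.36 ± 0.19 (adjusted p = 0.621). DESeq2 and limma with sample weights called 0 members here.

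With succinate, no member passed between Cre and floxed hearts (0.691% of all genes did), and 2 (Rpl3l and Rpl3) were at an unadjusted p under 0.05, against 11.1% of all genes. The median was -0.11, and it was 0.15 without replicate 4 of the floxed hearts with succinate, so its direction rested on that library. Rpl3l was lower in every Cre heart with succinate (138 to 205 normalised CPM) than in every floxed heart with succinate (243 to 282), the only member with such a gap against 3.54% of all genes. Its log2 fold change was -0.63 ± 0.19 (edgeR adjusted p = 0.167), and it was called by limma with sample weights, by the fit of these 2 groups alone and without replicate 1 of the Cre hearts without succinate. Rpl3 was at 0.33 ± 0.15 (adjusted p = 0.431). Skeletal muscle, which is also known to express Rpl3l, had higher marker levels in Cre hearts, at 894 to 1242 normalised CPM with succinate against 212 to 399 in floxed hearts with succinate (4 of 4 tested markers passed). Other marker lists differed in the same comparison. Atrial markers summed to 461 to 925 normalised CPM in Cre hearts with succinate against 65.4 to 94.5 in floxed hearts with succinate, with 2 of 5 tested and 1 higher. Of 7 fibroblast markers and 8 macrophage markers 0 passed, although all had positive fold changes, with medians of 0.40 and 0.31. The part of these cell types in the level of Rpl3l was not tested. Averaged over succinate, no member passed by genotype (1.88% of all genes did), and 10 of 86 were at an unadjusted p under 0.05, against 14.1% of all genes. The median was -0.16. It was -0.04 without replicate 4 of the floxed hearts with succinate, -0.10 without replicate 4 of the floxed hearts without and 0.03 without both. Rpl3l was nearest the threshold at -0.49 ± 0.14 (adjusted p = 0.0729). DESeq2 called 1 member in that averaged comparison and limma with sample weights 0.

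Paralogs did not share the direction of their partners in every pair. In floxed hearts with against without succinate, Rpl36a and Rpl36al were at -0.21 ± 0.21 and -0.30 ± 0.15, Rps27 and Rps27l at -0.37 ± 0.21 and -0.10 ± 0.19, and Rpl22 and Rpl22l1 at -0.22 ± 0.14 and 0.15 ± 0.24, with adjusted p from 0.214 to 0.772. Rpl39 was at -0.17 ± 0.24 (edgeR adjusted p = 0.674), Rps4x at -0.18 ± 0.17 (0.525), and their paralogs were too low to test or not analysed here. Only Rpl3 and Rpl3l had calls in opposite directions. Near-identical rows such as Rps27 and Rps27rt, or Rpl37rt and Rpl37, can exchange reads, and values of the retrocopy rows are uncertain because the handling of reads with several matches was not stated.

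Groups of members defined by structure or disease had medians near that of the whole. With succinate in floxed hearts, the medians were -0.15 for the 4 stalk genes, -0.21 for the 9 genes at the exit tunnel and -0.21 for the 18 genes mutated in human Diamond-Blackfan anaemia. None of these genes passed in floxed hearts, where 13.1% of all genes did, or in Cre hearts, where 0.917% did. In Cre hearts these medians were -0.10, -0.12 and -0.12. Large-subunit and small-subunit genes both had medians of -0.22 in floxed hearts and -0.13 in Cre hearts. Fau and Rack1, ribosomal proteins whose symbols fall outside the rule, did not pass either, with Rack1 at -0.27 ± 0.13 (edgeR adjusted p = 0.199) in floxed hearts.

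Lists of genes around the ribosome had calls in both directions, and their shares of calls were below the 13.1% of all genes called with succinate in floxed hearts. Of 50 ribosome biogenesis genes, 3 fell and 1 rose with succinate in floxed hearts (8.0%, median -0.01), and 0 passed in Cre hearts, where 0.917% of all genes did. Bysl (-0.41 ± 0.11) and Bop1 (-0.36 ± 0.10), which act in small-subunit and large-subunit assembly, and the RNA polymerase I and III subunit Polr1c (-0.36 ± 0.12) fell, and Rrs1 (0.34 ± 0.10), which helps to place the 5S particle, rose. The edgeR adjusted p of these 4 ranged from 0.0192 to 0.0493, and leaving out single libraries ended the call of Bysl in 1 fit (replicate 1 of the floxed hearts with succinate), of Bop1 in 4, of Rrs1 in 6 and of Polr1c in 11. Of 33 initiation factors (3.03% called) only Eif3a rose (0.35 ± 0.08), and of 11 elongation and termination factors (9.09%) only Eef1g, a TOP mRNA, fell (-0.39 ± 0.10, adjusted p = 0.0146), each with 1 library whose absence ended the call (replicate 3 of the floxed hearts with succinate for Eif3a and replicate 1 for Eef1g). Eef1g was also the 1 of 19 other TOP mRNAs that passed (5.26%), and the median of those 19 was -0.10.

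Regulators of growth and of ribosome quality were called at shares near that of all genes. Of 30 genes of mTORC1 and growth control, 4 rose and 1 fell with succinate in floxed hearts, 16.7% against 13.1% of all genes, with a median of 0.12. Mycn, a transcription factor that drives ribosome production, fell by 1.55 ± 0.20 on the log2 scale (edgeR adjusted p = 0.000159), and Deptor, an mTOR inhibitor (0.64 ± 0.13), Sesn1, a sestrin upstream of mTORC1 (0.51 ± 0.11), and Castor2, of the arginine-sensing pair (0.78 ± 0.21), rose. Eef2k, the kinase that inhibits the elongation factor eEF2, rose by 0.33 ± 0.10 (adjusted p = 0.0469), a call that ended in 12 of the leave-one-out fits. The call of Castor2 ended without replicate 1 or 3 of the floxed hearts with succinate or replicate 1 of those without. In Cre hearts 0 of 30 passed, against 0.917% of all genes. Mycn was at -0.75 ± 0.19 there (edgeR adjusted p = 0.0698) and Sesn1 at 0.46 ± 0.11 (0.0614). Averaged over both genotypes, 20% of the 30 passed, against 19.0% of all genes. Mycn was then at -1.15 ± 0.14 (edgeR adjusted p = 3.27e-05) and Sesn1 at 0.48 ± 0.08 (0.000595). The interaction for Mycn did not pass, at 0.80 ± 0.27 (edgeR adjusted p = 0.970). Of 20 genes of ribosome quality control, 15.0% passed with succinate in floxed hearts, against 13.1% of all genes. Map3k20, a sensor of collided ribosomes, rose (0.46 ± 0.12). Habp4, a ribosome-binding protein (-0.31 ± 0.07), and Eif4e2, a cap-binding repressor (-0.27 ± 0.07), fell. The call of Map3k20 ended in 4 fits that left out a floxed library, and that of Eif4e2 without replicate 1 of the floxed hearts with succinate. In Cre hearts 0 of the 20 passed, against 0.917% of all genes. Averaged over both genotypes, Map3k20, Habp4 and Eif4e2 were called again, 15% of the list against 19.0% of all genes.

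Protein complexes of similar make-up gave other medians. In floxed hearts, 4 of 78 mitochondrial ribosomal protein genes rose with succinate, against 7.48% of all genes. None fell, against 5.64% of all genes, and the median was 0.02. Of 39 proteasome subunit genes 0 passed, against 13.1% of all genes, with a median of -0.06. In Cre hearts the medians were 0.13 and 0.05, with 0 passing in either, against 0.917% of all genes. The cytosolic members thus had the lowest median of these 3 groups in both genotypes, at -0.22 and -0.12, which is a description without a test.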

How the data were processed

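Total RNA of 16 hearts was made into libraries with the VAHTS Universal V6 kit, per the labels' protocols. The submitters' processing notes name fastp, HISAT2, HTSeq, R 3.2.0, DESeq2 and the build GRCm39. The deposited count table holds read counts per gene, not normalised, and the deposited FPKM table holds the authors' FPKM per gene; depths are given in the results. The strand setting and the handling of multiple matches were not stated, and reads of overlapping antisense genes therefore cannot be told apart.

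Counts were scaled by TMM, filtered with filterByExpr (minimum count 10) and tested with the robust quasi-likelihood F-test of edgeR 4.0.16 in R 4.3.3, with 1 mean for each of the 4 groups, all 16 libraries in 1 fit and Benjamini-Hochberg adjustment over 14607 genes (threshold 0.05). The 7 contrasts were succinate within each genotype, genotype within each treatment, their interaction and the 2 averages. Standard errors are the fold change divided by the root of F. The fit was tested on simulated data in which each gene was drawn on its own, with no shift shared within a heart. That test therefore does not bear on how many members were called, because the members move together. Members with named values were those that passed, the 3 highest and lowest fold changes, the 5 highest and lowest levels, and fixed pairs and structural groups. Some genes that this rule or the lists hold are not reported here. Alternatives were DESeq2 1.42.0, limma 3.58.1, other scalings and filters, FPKM with pseudocounts of 1 and 0.1, a replicate block and leaving out each library. The members and gene lists were chosen with earlier results of these data known. Motifs were searched in RefSeq promoter windows.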

Additional observations from a re-analysis of the deposited data

Results flagged for a closer look

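The named members that were tested, the summed share and the ratio of Rpl3l to Rpl3 counts formed 112 groups of 4 hearts. Of these, 14 held a heart whose gap to its nearest neighbour took up a larger part of the group's range than Dixon's critical value for 4 samples. Chance gives about 1 in 20 such groups, and because members move together within a heart these are not independent. Replicate 4 of the floxed hearts with succinate was the high heart for Rpl22l1 (share of range 0.847), Rps29 (0.831), Rps27rt (0.854), Rpl22 (0.91) and Rps27 (0.832), with Rps29 at 495 normalised CPM against 231 to 275 in the other 3. Replicate 4 of the floxed hearts without succinate was the high heart for Rpl22l1 (0.981), at 40.9 against 26.96 to 27.2, and for Rps27rt (0.834). Replicate 2 of the Cre hearts with succinate was high for Rpl10 (0.851), Rps27a (0.85), Rps27 (0.832) and Rpl5 (0.842), with Rpl10 at 356 against at most 282 in the other 3. Replicate 2 of the Cre hearts without succinate was high for Rpl22l1 (0.908) and Rps29 (0.831).

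The remaining heart was low. Replicate 1 of the Cre hearts without succinate had 79.3 normalised CPM of Rpl3l against 147 to 160 in the other 3 (0.835), and in the same heart Rpl3 stood at 384 against 264 to 288.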

How the results depend on the processing

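Members that passed with succinate in floxed hearts (3) numbered 6 with DESeq2, 14 with limma and sample weights, 7 on FPKM with a mean of at least 1, 26 without both floxed hearts numbered 4, and 2 to 59 when single libraries were left out. For succinate averaged over genotypes (4) these were 8, 19, 12, 43 and 3 to 55. For most of these settings the share of all genes called is not given here. For those settings the counts cannot be read as particular to the members. Between genotypes with succinate (0), limma with sample weights and the fit of only the groups compared gave 1 each, and leaving out single libraries gave 0 to 1; averaged over succinate, DESeq2 gave 1 and leaving out libraries 0 to 1, the 1 being without replicate 1 of the floxed hearts without succinate. Of the same-numbered libraries, only replicate 4 of the floxed hearts (0.18) and replicate 1 across genotypes (0.32 with and 0.27 without succinate) had correlated deviations above 0.1. Not every library correlated best with its own number. The correlations thus do not show that the numbers pair the samples, and they cannot exclude a link between some of them. With a replicate block 5 members passed in floxed hearts, 10 averaged over genotypes and 1 by genotype averaged over succinate, and the other 4 comparisons stayed at 0. The share of all genes called with this block is not given here either. With nuclear-encoded counts as the denominator, the mean summed share was 2.75% in floxed hearts with succinate and 3.32% without, and 2.61% in Cre hearts with succinate and 2.98% without. Under these alternatives no fold change of a called gene changed sign, while 113 single-gene results with a library left out and 57 under other settings no longer passed. Apart from fewer samples or genes tested, the cause of these changes was not tested. Leaving out single libraries moved the median log2 fold change between -0.49 and -0.10 in floxed hearts and between -0.25 and -0.07 in Cre hearts with against without succinate.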
